A study of Mus musculus with 8 samples.

Results

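The 9 genes Tmem119, Cx3cr1, Siglech, Gpr34, Fcrls, Olfml3, Sparc, Golm1 and Selplg, markers of microglia in their resting or homeostatic state, were examined in ATAC-seq peak lists from mouse hippocampal microglia. They were taken by name, and all 9 were found among 21883 protein-coding genes of the annotation. A locus is the span of a gene with 20 kb on each side, and every peak in it was counted. Peaks of all libraries that shared at least 1 bp were merged into regions, of which 51 of 52251 lay in these loci. Regions are numbered within a locus by rising coordinate, and the loci of Tmem119 and Selplg, which are neighbours on chromosome 5, share 3 of them.

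ATAC-seq uses a transposase that cuts accessible DNA and adds sequencing adapters, and a peak is a stretch where reads pile up above the local background. There were 4 libraries labelled FGR and 4 libraries labelled Ctrl, all from mice 3 weeks after birth and all from the genotype Tmem119-tdTomato+/-. Every library therefore came from animals with 1 copy of a red fluorescent reporter named for one of the 9 genes. FGR is not spelled out in the labels, and the sources used here do not give the insertion site of the reporter, the sex and number of animals per library, or whether libraries came from separate animals. P-values therefore reflect the spread between these libraries, which may be technical.

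Microglia are the resident macrophages of the brain. In the undisturbed brain they keep a transcriptional programme that depends on signals such as TGF-beta and on transcription factors of the PU.1, RUNX, SMAD and MEF2 families, and the 9 genes belong to this programme. Such genes are commonly used to tell microglia from other macrophages, and their expression falls when microglia take up reactive states. Accessible sites at such genes lie at promoters and at distal elements, and a distal element can act on a gene other than the nearest one.

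Promoter sequences, 250 bases before the transcription start site, are shown for 4 of the genes. Their gene-end peaks lie over this stretch and were called in different numbers of libraries. Peaks also lay over this stretch at Olfml3 and Sparc, whose 250 bases hold none of the letters marked below and are not shown. Sequences were taken from RefSeq (GRCm38.p6, the coordinates of mm10), in which 6 of the 9 genes were matched, and each reads 5′ to 3′ on the strand of its gene. They lie at chr9:120068297-120068546 (minus strand) for Cx3cr1, chr7:55767934-55768183 (plus strand) for Siglech, chr3:87263525-87263774 (minus strand) for Fcrls and chr13:59675785-59676034 (minus strand) for Golm1. Capitals mark the PU.1-type letters GAGGAAG, the ETS core letters GGAAGT and the RUNX letters TGTGGT on either strand.
Cx3cr1: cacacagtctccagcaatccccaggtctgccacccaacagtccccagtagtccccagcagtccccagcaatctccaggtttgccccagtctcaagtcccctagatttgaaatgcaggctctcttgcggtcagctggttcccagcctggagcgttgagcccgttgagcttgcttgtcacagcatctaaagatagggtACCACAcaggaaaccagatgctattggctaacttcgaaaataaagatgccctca
Siglech: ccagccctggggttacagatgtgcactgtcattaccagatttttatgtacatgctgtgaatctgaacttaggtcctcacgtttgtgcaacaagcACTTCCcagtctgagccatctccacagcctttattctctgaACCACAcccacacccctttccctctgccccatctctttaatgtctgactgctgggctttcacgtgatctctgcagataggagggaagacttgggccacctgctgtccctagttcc
Fcrls: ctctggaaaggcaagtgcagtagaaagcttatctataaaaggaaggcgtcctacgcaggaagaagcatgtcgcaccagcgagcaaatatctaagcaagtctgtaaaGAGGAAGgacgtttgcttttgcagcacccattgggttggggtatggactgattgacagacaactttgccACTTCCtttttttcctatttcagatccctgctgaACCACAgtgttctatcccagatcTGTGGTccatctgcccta
Golm1: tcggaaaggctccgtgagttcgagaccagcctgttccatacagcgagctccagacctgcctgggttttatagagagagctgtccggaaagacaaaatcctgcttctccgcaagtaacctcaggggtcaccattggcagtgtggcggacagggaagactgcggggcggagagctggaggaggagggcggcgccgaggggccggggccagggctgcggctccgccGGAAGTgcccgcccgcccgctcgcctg

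The letters were searched on both strands in windows of 250 bases before to 50 bases after the start site, and GAGGAAG overlaps GGAAGT where a T follows it. With the start site counted as 0, the Cx3cr1 promoter held RUNX letters at -54 to -49 and none of the PU.1-type or ETS core letters. The Siglech promoter held ETS core letters at -156 to -151 and RUNX letters at -115 to -110. Fcrls held the PU.1-type letters at -144 to -138, the ETS core at -75 to -70 and RUNX letters at -41 to -36 and at -18 to -13. Golm1 held the ETS core letters at -27 to -22. Among the 6 promoters matched, RUNX letters stood in 4 (Cx3cr1, Siglech, Fcrls and Sparc), against 16.8% of 32851 mouse promoters. The ETS core letters stood in 3, against 23.8% of all promoters, and the PU.1-type letters in 1, against 13.6%. SMAD letters (CAGAC) stood in 5, against 49.6%, and MEF2-type letters (CTANNNNAG) in 2, Fcrls and Sparc, against 32.6%. The IRF-type letters (GAAANNGAA) and the AP-1 letters (TGANTCA) stood in none of the 6, against 8.56% and 7.81% of all promoters. In all, 13 sets of letters were searched, and not all of them are given here. A match describes the letters of a window only.

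The lists differed in length and in peak shape. FGR replicates 1 to 4 had 27209, 23327, 29501 and 26246 peaks, and Ctrl replicates 1 to 4 had 16111, 10862, 22705 and 24195. Background coverage, the lowest local background of a list in extended reads per base, was 3.52 to 4.82 in FGR and 3.01 to 6.05 in Ctrl. Ctrl replicates 1 and 2 stood apart, with median peak widths of 566 and 522 bp against 353 to 358 bp in FGR and 368 and 386 bp in the other Ctrl libraries. At regions of the 9 loci, the median distance between a summit of either library and that of any of the other 6 was 101 to 150 bp, while it was 9 to 35 bp for every pair among those 6. FGR replicates 1 and 3, and FGR replicates 2 and 4, had their summit at the identical base in 5 of 59 shared regions of the 9 loci, against 6 of 332 in the other pairs among these 6 libraries. Over all shared regions the share was 7.57% to 9.14% in the 2 FGR pairs, against 1.76% to 2.14% in those other pairs. Whether these FGR libraries share material was not tested.

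Because the 2 FGR pairs may not be separate samples, values are given per library. The percentile of a peak in its own list, by −log10 q, describes its place in that list, and since the lists differ in length, percentiles set side by side do not measure a change. In bulk libraries, fewer cells with an open site and less opening per cell cannot be told apart.

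Peaks were found in the loci of all 9 genes. FGR replicates 1 to 4 had peaks in 35, 28, 38 and 39 of the 51 regions, and Ctrl replicates 1 to 4 in 19, 11, 29 and 33. These numbers follow the order of the list lengths within Ctrl but not within FGR, where replicate 4 had the most regions and replicate 3 the longest list. Per 10000 peaks of its list, a library had between 12 and 14.9 of these regions in FGR and between 10.1 and 13.6 in Ctrl, and the groups overlapped.

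Regions of the 9 loci ranged from those called in 1 library to those called in all. Of the 51 regions, 10 were called in all 8 libraries, which is 19.6%, against 16.9% of all regions. Only 8, or 15.7%, were called in a single library, against 45.9% of all regions. Their median merged width was 438 bp, against 346 bp over all regions. By position, 9 of the 51 lay at a gene end, 12 inside a gene and 30 outside it.

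**Figure D1:**
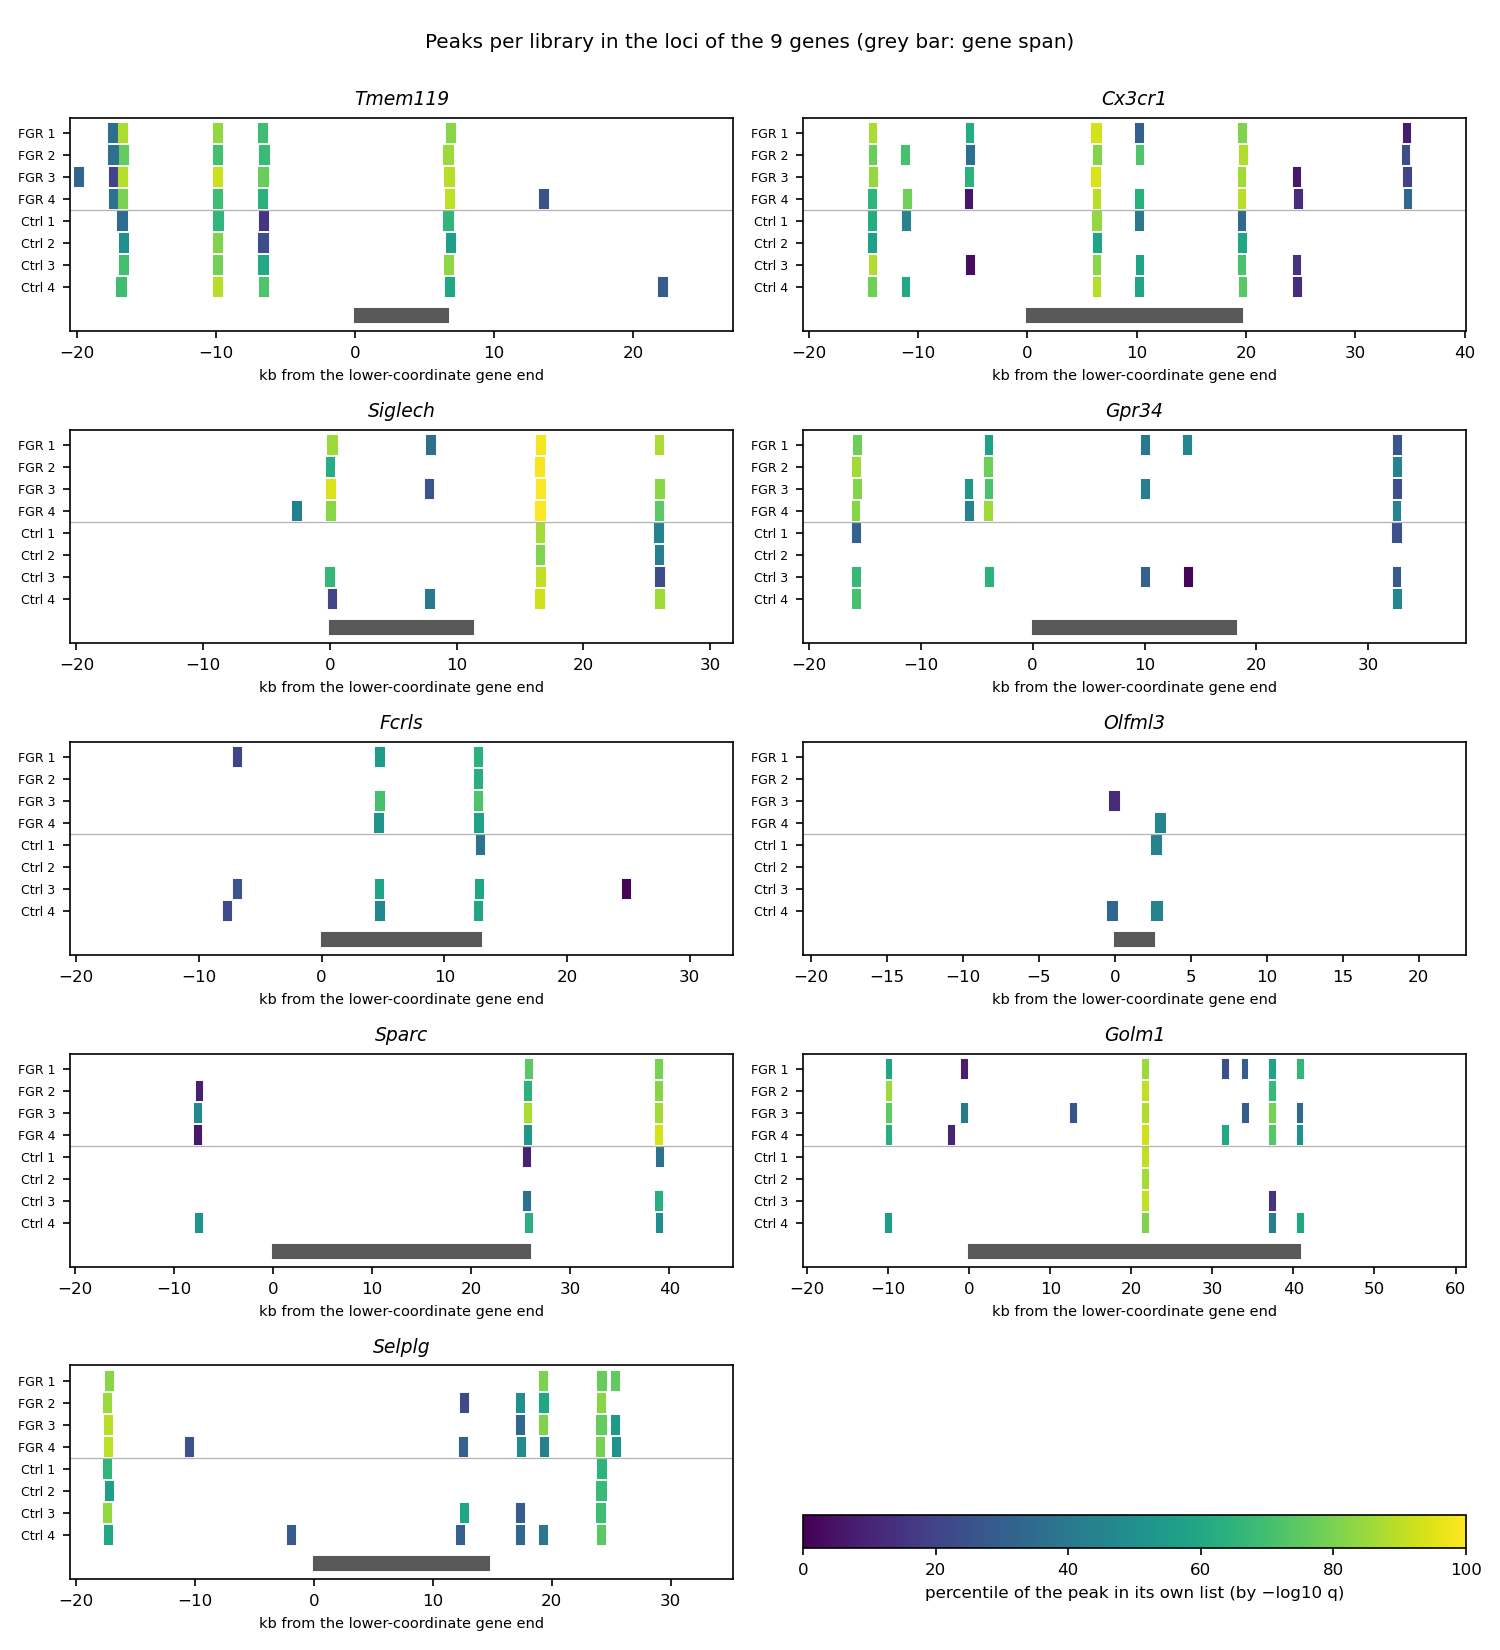
Peaks of each library (rows, FGR above Ctrl) in the loci of the 9 genes, drawn by distance in kb from the lower-coordinate gene end, with the gene span as a grey bar and colour for the percentile of the peak within its own list by −log10 q. Siglech region 4, beyond the right end of the gene, was the brightest mark in the FGR rows, at the 98.7 to 99.6 percentile of the FGR lists and the 80.8 to 92.8 percentile of the Ctrl lists.

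Cx3cr1 encodes the receptor for fractalkine, a chemokine displayed by neurons, and spans chromosome 9 from 120048683 to 120068296 (mm10). Its locus held 6, 7, 6 and 8 peaks in FGR replicates 1 to 4, against 5, 3, 6 and 6 in Ctrl replicates 1 to 4. The groups touched at 6 peaks. The promoter peak, region 6 (chr9:120068055-120068804), was called in all 8 libraries and covers the sequence shown above. Its summit lay between 67 bases before and 17 bases after the start site in FGR, and between 200 bases before and 145 bases after it in Ctrl. Both extremes of Ctrl came from replicates 1 and 2, the libraries with wide peaks. The promoter peak stood at the 80.8 to 89.4 percentile of the FGR lists and at the 34.1 to 74.0 percentile of the Ctrl lists. Ranked among the regions called in all 8 libraries, it overlapped between the groups, as given below. A region inside the gene, region 4 (chr9:120054631-120055416), 13.3 kb downstream of the start site, was the strongest peak of the locus in 5 of 8 libraries.

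Siglech encodes a sialic acid-binding lectin receptor of the microglial surface and spans chromosome 7 from 55768154 to 55779448. Its locus held 4, 2, 4 and 4 peaks in FGR, against 2, 2, 3 and 4 in Ctrl, and the groups overlapped. The promoter peak, region 2 (chr7:55767952-55768713), was called in 4 FGR and 2 Ctrl libraries, those of Ctrl replicates 3 and 4. It stood at the 85.4, 62.0, 94.4 and 82.4 percentile of FGR lists 1 to 4, against 66.6 in Ctrl replicate 3 and 20.3 in Ctrl replicate 4. Region 4 (chr7:55784378-55785150), 773 bp wide and 4930 bp beyond the end of the gene, lay 16.6 kb downstream of the start site and was the strongest peak of the locus in all 8 libraries. It is described further with the ranks below. Region 5 lay inside the neighbouring gene Tubgcp5 and was called in 3 FGR and 4 Ctrl libraries.

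Gpr34 encodes a receptor for lysophosphatidylserine and lies on chromosome X from 13622650 to 13640859, within the span of Cask, so that its peaks cannot be assigned to one of the pair. No library had a peak within 1 kb of either of its annotated ends. The locus held 5, 3, 5 and 4 peaks in FGR, against 2, 0, 5 and 2 in Ctrl, with an overlap through Ctrl replicate 3. Region 1 (chrX:13606650-13607188), 15462 bp from the gene, was the strongest peak in 6 of the 7 libraries with a peak. It stood at the 77.4 to 86.0 percentile of the FGR lists, against 31.4, 67.1 and 70.8 in Ctrl replicates 1, 3 and 4, and was not called in Ctrl replicate 2.

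Fcrls, a mouse scavenger receptor related to Fc receptors, spans chromosome 3 from 87250736 to 87263765. Its locus held 3, 1, 2 and 2 peaks in FGR, against 1, 0, 4 and 3 in Ctrl, where both a library without peaks and the library with most peaks were found. The promoter peak, region 4 (chr3:87263275-87263932), covers the PU.1-type and ETS core letters shown above and was the strongest peak of the locus in all 7 libraries with a peak. It stood at the 57.5 to 72.2 percentile in FGR and at 38.3, 59.5 and 58.9 in Ctrl replicates 1, 3 and 4.

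Tmem119, a membrane protein used as a microglial surface marker, spans chromosome 5 from 113793729 to 113800396. Its locus held 5, 5, 6 and 6 peaks in FGR, against 4, 4, 4 and 5 in Ctrl, and the groups touched at 5 peaks. A peak at its higher-coordinate end, region 6 (chr5:113800164-113800926), was called in all 8 libraries, at the 82.1, 85.1, 89.8 and 89.9 percentile in FGR and the 65.4, 55.7, 83.5 and 59.5 percentile in Ctrl. Regions 3, 4 and 5, on the other side of the gene, were also called in all 8 libraries, and the first of them lies inside the neighbouring gene Iscu. The locus thus held a gene-end peak and 3 further peaks outside the gene in all 8 libraries. All of these libraries are of the genotype with the reporter, so none without it could be compared.

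Selplg encodes PSGL-1, the ligand of P-selectin, and spans chromosome 5 from 113817798 to 113832528, on the side of Tmem119 away from Iscu. It had no gene-end peak in any library. Its locus held 4, 5, 5 and 7 peaks in FGR, against 2, 2, 4 and 6 in Ctrl, with overlap. Its strongest peak in 6 of 8 libraries was the peak at the end of Tmem119, 16872 bp away. Of the regions not shared with Tmem119, region 7 (chr5:113841605-113842363), 9077 bp beyond the gene, was called in all 8 libraries at the 76.1 to 82.2 percentile in FGR and the 64.5 to 74.2 percentile in Ctrl.

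Olfml3, a secreted olfactomedin-like glycoprotein, spans chromosome 3 from 103735394 to 103738001 and had the fewest peaks of the 9 genes. Its locus held 0, 0, 1 and 2 peaks in FGR, against 1, 0, 0 and 2 in Ctrl. All of them lay at the gene ends. The promoter peak, region 2 (chr3:103737815-103738538), was called in FGR replicate 4, as 2 neighbouring peaks of which the stronger stood at the 45.6 percentile, and in Ctrl replicates 1 and 4 at the 44.2 and 44.5 percentile.

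Sparc, a secreted collagen-binding protein of the extracellular matrix, spans chromosome 11 from 55394159 to 55420080. Its locus held 2, 3, 3 and 3 peaks in FGR, against 2, 0, 2 and 3 in Ctrl, and the groups overlapped. The promoter peak, region 2 (chr11:55419629-55420273), was called in 4 FGR and 3 Ctrl libraries, at the 53.4 to 87.1 percentile in FGR and at 9.10, 37.3 and 62.7 in Ctrl replicates 1, 3 and 4. Region 3 (chr11:55432839-55433440), 13.1 kb upstream of the start site, was the strongest peak in 5 of the 7 libraries with a peak. It stood at the 79.5 to 93.7 percentile in FGR and at 37.1 to 62.6 in the 3 Ctrl libraries that had it. Since Ctrl replicate 2 lacked it, it was not among the regions compared by rank.

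Golm1 encodes a membrane protein of the Golgi apparatus and is the longest of the 9 genes, on chromosome 13 from 59634996 to 59675784. Its locus held 7, 3, 7 and 6 peaks in FGR replicates 1 to 4, against 1, 1, 2 and 4 in Ctrl replicates 1 to 4. Only FGR replicate 2 lay below the highest Ctrl library. Region 5 (chr13:59656402-59657081), inside the gene and 19.0 kb downstream of the start site, was called in all 8 libraries and was the strongest peak in each of them. It stood at the 84.8, 90.7, 88.3 and 92.9 percentile in FGR, against 90.5, 86.7, 90.3 and 81.0 in Ctrl. The groups overlapped at this region, and it was the sole peak of the locus in Ctrl replicates 1 and 2.

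The other 8 regions of Golm1 were called in 1 to 4 FGR libraries and in 0 to 2 Ctrl libraries. Region 8 (chr13:59672214-59672583), 3.39 kb downstream of the start site, was called in 4 FGR libraries at the 58.2 to 79.7 percentile, against 14.2 in Ctrl replicate 3 and 42.1 in Ctrl replicate 4. Region 1, inside the neighbouring gene Naa35, was called in 4 FGR libraries at the 59.7 to 84.9 percentile and in Ctrl replicate 4 at 55.3. Regions 2 and 3 also overlapped Naa35 and were called in 1 and 2 FGR libraries, respectively, and in no Ctrl library. Region 3 lay 438 bp outside Golm1 and so counts as a gene-end peak. The promoter peak, region 9 (chr13:59675672-59675998), covers the ETS core letters shown above and was called in FGR replicates 1, 3 and 4 and in Ctrl replicate 4.

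**Figure D2:**
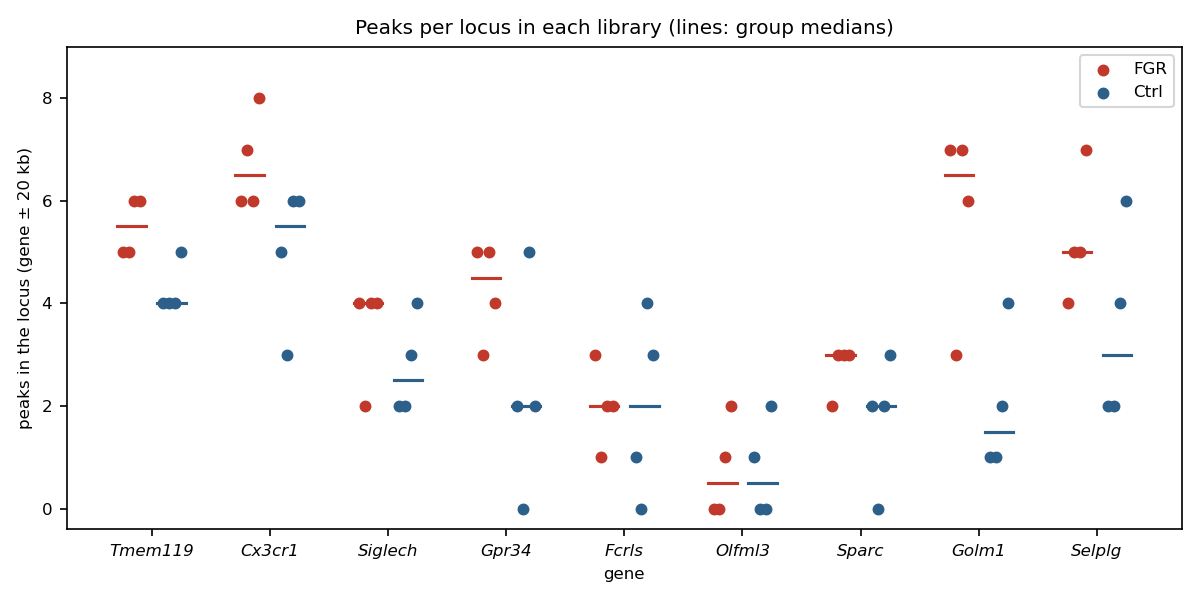
Number of peaks in the locus of each of the 9 genes (points: libraries, FGR left of Ctrl; lines: group medians). Golm1 held 7, 3, 7 and 6 peaks in FGR and 1, 1, 2 and 4 in Ctrl, while Olfml3 held at most 2 in any library.

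The question of whether the loci took a different share of peaks in FGR was tested with limma on a log2 scale, with 0.5 added to each count of peaks and the sum divided by the length of the list in units of 10000 peaks. Of the 9 genes, 8 passed the filter of a mean of at least 2 peaks over all libraries, and Olfml3, with a mean of 0.75, did not. None of the 8 passed at an adjusted p of 0.05 in either direction, as over all 8034 loci tested, of which 0.0124% passed as higher in FGR and 0.0% as lower. By sign, 4 of the 8 loci were higher and 4 lower in FGR, with a median log2 difference of -0.06. Over all loci 22.5% were higher and the median was -0.28. Set against that median, 7 of the 8 loci lay above it, Golm1 by 1.11, Gpr34 by 0.89, Sparc by 0.52, Selplg by 0.31, Cx3cr1 by 0.13, Fcrls by 0.06 and Tmem119 by 0.03, and Siglech did not. The last 3 of these margins were smaller than the SE of the locus. The count was between 5 of 7 and 8 of 8 when any library was left out and 3 of 5 with windows of 10 kb.

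In the fit of all 8 libraries Golm1 differed most among the 8 loci, by 0.83 ± 0.26 on the log2 scale (SE, 95% interval 0.29 to 1.36), and its adjusted p from limma was 0.158. It averaged 2.13 peaks per 10000 in FGR and 1.02 in Ctrl. None of the other 7 loci had an unadjusted limma p under 0.05, which 209 higher and 1256 lower loci of all tested had. The difference stayed positive in the 18 alternatives tried, from 0.46 with a window of 50 kb to 1.42 without division by list length, with limma adjusted p from 0.0549 upward. Without Ctrl replicates 1 and 2 it was 0.66 ± 0.29 (SE, limma adjusted p = 0.55). Gpr34 differed more than Golm1 without Ctrl replicate 1, without Ctrl replicate 3, with −log10 q of at least 5 and with windows of 50 kb, and Fcrls differed more without Ctrl replicates 1 and 2.

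Gpr34 came next at 0.61 ± 0.32 on the log2 scale (SE, limma adjusted p = 0.279), a value that was 0.16 without Ctrl replicates 1 and 2. Ctrl replicate 2, the shortest list, had no peak in the Gpr34, Fcrls, Olfml3 or Sparc locus. Sparc was 0.23 ± 0.36 and Selplg 0.03 ± 0.24 (SE), and both were below 0 without Ctrl replicates 1 and 2. Tmem119 was above 0 there, and Cx3cr1 was -0.0275. In the fit of all 8 libraries Cx3cr1 was -0.16 ± 0.21, Fcrls -0.22 ± 0.44, Tmem119 -0.25 ± 0.23 and Siglech -0.29 ± 0.25 (SE). Limma adjusted p for these 6 loci lay between 0.482 and 0.943. Fcrls was -0.62 (SE 0.32) without Ctrl replicate 2 and -0.91 (SE 0.31) without both Ctrl replicates 1 and 2, with adjusted p from limma of 0.406 and 0.501. Without division by list length all 8 loci were higher in FGR, as were 86.1% of all loci, with a median of 0.53 against 0.31 over all loci.

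**Figure D3:**
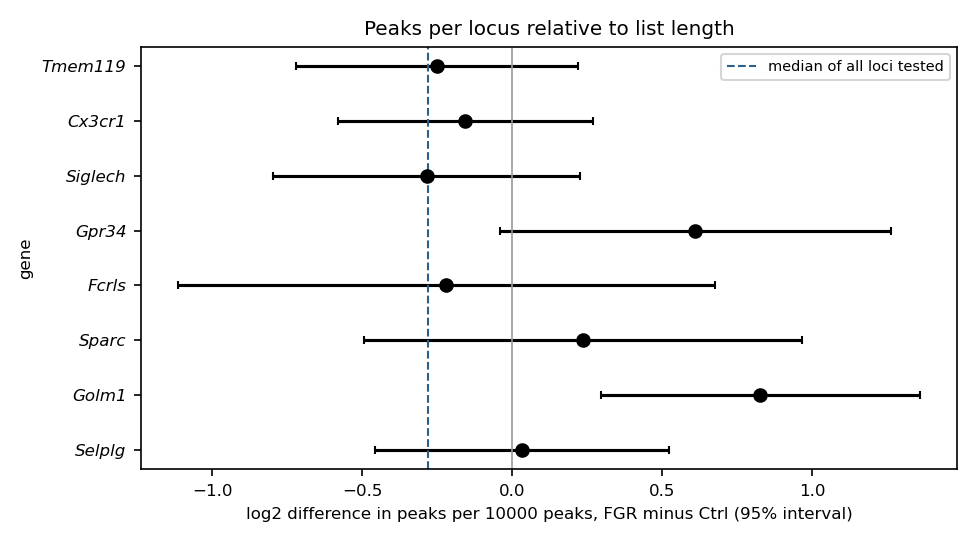
Log2 difference in peaks per 10000 peaks, FGR minus Ctrl, for the 8 loci tested (points: limma estimate; bars: 95% interval), with the median of all 8034 loci as a dashed line at -0.28. The interval of Golm1, 0.29 to 1.36, lies above 0, and the other 7 intervals include 0.

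The loci of Tmem119 and Cx3cr1 each held a region called in every FGR library and in no Ctrl library. They were Tmem119 region 2 (chr5:113776217-113776548), inside Iscu and 82 bp from region 3, and Cx3cr1 region 8 (chr9:120083129-120083695), 15.1 kb upstream of the Cx3cr1 start site. Together they made up 4.65% of the 43 regions of the 9 loci that were called in at least 2 libraries, against 1.61% of 28255 such regions in all. No region of the 9 loci was called in all Ctrl and no FGR libraries, against 0.0495% of all regions. Both were weak peaks in their lists, at the 36.5, 36.9, 19.6 and 37.7 percentile of FGR lists 1 to 4 for the Tmem119 region and at 7.15, 23.1, 19.8 and 33.9 for the Cx3cr1 region.

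With 4 libraries against 4, the two-sided Fisher exact test cannot give a p below 0.0286, which both regions reached, and after adjustment over all regions their p was 1. At an unadjusted p under 0.05 there were 468 regions in all, and 0 passed after adjustment. When only peaks with −log10 q of at least 5 were kept, or when every list was reduced to its 10862 strongest peaks, none of the regions of the 9 loci met this pattern. It was met by 2 regions without Ctrl replicates 1 and 2, by 4 without Ctrl replicate 3 and by 4 without Ctrl replicate 4.

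By number of libraries, 29 of the 51 regions were called in more FGR libraries, 5 in more Ctrl libraries and 17 in equal numbers. The share in more FGR libraries was 56.9%, against 58.6% of all regions, and that in more Ctrl libraries 9.80%, against 17.8%. There were 12 regions called only in FGR, or 23.5%, against 42.3% of all regions, and 3 called only in Ctrl, or 5.88%, against 14.9%. Of the 9 regions called in exactly 2 FGR libraries, 4 were called in replicates 1 and 3, 2 in replicates 2 and 4, 2 in replicates 3 and 4 and 1 in replicates 1 and 4. Over all regions called in exactly 2 FGR libraries, 47.1% were in replicates 1 and 3, 25.02% in 2 and 4, 11.9% in 3 and 4 and 6.54% in 1 and 4.

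At gene ends, the 9 genes fell into groups. A gene-end peak is one within 1 kb of either annotated end of a gene. Tmem119 and Cx3cr1 had one in all 8 libraries, which is 2 of 9, against 31.9% of all genes. Fcrls and Sparc had one in 4 FGR and 3 Ctrl libraries, missing in Ctrl replicate 2, and Siglech in 4 FGR and 2 Ctrl libraries. Golm1 had one in 3 FGR and 1 Ctrl libraries, and Olfml3 in 2 of each group. Gpr34 and Selplg had none, like 42.2% of all genes.

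None of the 9 genes had a gene-end peak in every FGR library and in no Ctrl library, against 0.169% of all genes, or the reverse, against 0.0228%. Fisher's exact test gave adjusted p = 1 for each of the 9 genes, with unadjusted p of 0.429 or above. Over all genes, 42 had an unadjusted p under 0.05 and 0 passed after adjustment. The gene-end peak was called in more FGR than Ctrl libraries for 4 of the 9 genes and in more Ctrl libraries for 0, against 16.5% of all genes with more FGR libraries and 5.50% with more Ctrl libraries.

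Most of the strongest peaks of the 9 loci lay away from the gene ends. In FGR replicates 1 to 4, a gene-end peak was the strongest of the locus for 12.5%, 37.5%, 33.3% and 33.3% of the genes with a peak, against 43.3% to 44.3% of all genes in the same lists. In Ctrl replicates 1 to 4 the shares were 22.2%, 20%, 25% and 33.3%, against 45.5% to 50.1% of all genes. Only Fcrls and Olfml3 were led mostly by a peak at their own end.

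Strength was compared over the 8856 regions called in all 8 libraries, which were ranked by −log10 q within each library. The same regions were ranked in every list, but a region missed by a short list could not enter the set. The 9 loci held 10 of these regions. Siglech region 4, downstream of the gene, ranked at the 96.39, 96.47, 98.61 and 97.98 percentile in FGR replicates 1 to 4, against 75.76, 76.56, 75.67 and 80.36 in Ctrl replicates 1 to 4. Every FGR library lay above every Ctrl library, with a gap larger than the range of either group. The difference was 20.3 percentile points (SE 3.21, 95% interval 13.5 to 27.1) with a limma adjusted p of 0.0622, which did not pass. Its unadjusted limma p of 7.02e-06 was the smallest of the 8856 regions.

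The authors' fold over local background at this region was 7.53, 7.93, 7.93 and 7.63 in FGR, against 4.55, 4.52, 5.63 and 5.24 in Ctrl. Behind these values stood a summit pileup of 76, 72, 93 and 90 extended reads in FGR, against 54, 36, 61 and 68 in Ctrl, over a local background that overlapped between the groups. The summit lay 16581 or 16582 bases downstream of the start site in FGR replicates 1, 2 and 4 and in Ctrl replicate 3. The region holds no gene end and no other protein-coding gene in the annotation, and its sequence was not used here.

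The limma adjusted p of Siglech region 4 lay between 0.0413 and 0.447 in 14 alternatives, and its difference between 13.7 and 32.1 percentile points, always higher in FGR. It passed in 2 of them, when lists were cut to equal length (31 points, limma adjusted p = 0.0413) and without Ctrl replicate 4 (21.3 points, limma adjusted p = 0.0422). Without Ctrl replicates 1 and 2 it was 13.7 points among the regions called in all 6 remaining libraries (limma adjusted p = 0.0926). With the pairs of replicates averaged in both groups the adjusted p from limma was 0.447. The Ctrl libraries were paired by the same replicate numbers as the FGR libraries, which left 2 values per group. Ctrl replicates 1 and 2 were thus each averaged with another Ctrl library, although their summits lay apart from those of the others. Averaging the FGR pairs alone was not tested.

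**Figure D4:**
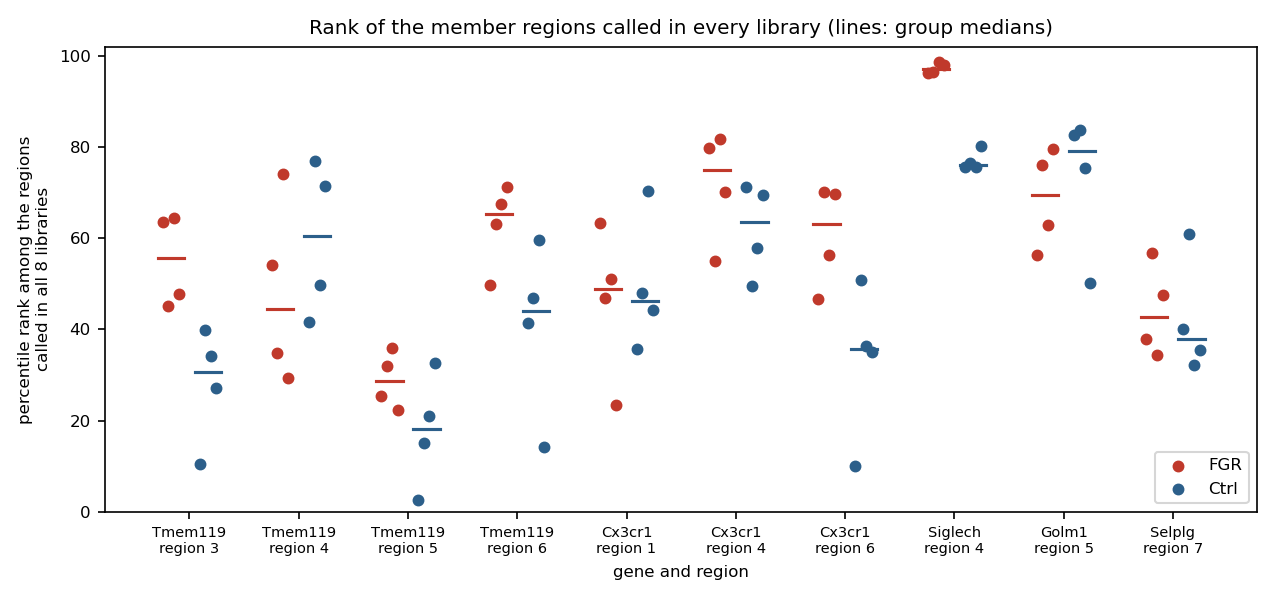
Percentile rank by −log10 q of the 10 regions of the 9 loci among the 8856 regions called in all 8 libraries (points: libraries, FGR left of Ctrl; lines: group medians). Siglech region 4 lies at 96.4 to 98.6 in FGR and 75.7 to 80.4 in Ctrl, and 8 of the other 9 regions overlap between the groups.

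Tmem119 region 3, inside Iscu, was the other region without overlap. It ranked at the 63.6, 45.2, 64.4 and 47.7 percentile in FGR, against 10.4, 39.9, 34.2 and 27.0 in Ctrl, a difference of 27.3 (SE 10.97, limma adjusted p = 0.233). Without Ctrl replicates 1 and 2 the difference was 19.9 (limma adjusted p = 0.526), and with the pairs averaged its limma adjusted p was 0.536. That makes 2 of the 10 regions with every FGR library above every Ctrl library, against 5.16% of the 8856 regions, and 0 with every FGR library below, against 4.01%. By the limma test 0.0% of all regions passed as higher and 0.0% as lower in FGR, with 751 higher and 646 lower at an unadjusted p under 0.05.

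The Cx3cr1 promoter region ranked at the 46.72, 70.25, 56.42 and 69.73 percentile in FGR, against 10.02, 50.85, 36.29 and 34.97 in Ctrl. The difference was 27.7 (SE 11.9, limma adjusted p = 0.267), with an overlap through FGR replicate 1 and Ctrl replicate 2. It was 20.2 without Ctrl replicates 1 and 2 (limma adjusted p = 0.472), and with the pairs averaged its limma adjusted p was 0.547. The Tmem119 gene-end region differed by 22.4 (SE 12.1, limma adjusted p = 0.382). The region inside Golm1 differed by -4.25 (SE 9.02, limma adjusted p = 0.858) and Tmem119 region 4 by -11.8 (SE 12.9, limma adjusted p = 0.684), with overlap in each. By sign 7 of the 10 regions ranked higher and 3 lower in FGR, with a median of 10.4 points, against 4296 higher and 4560 lower and a median of -0.311 over all 8856.

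**Figure D5:**
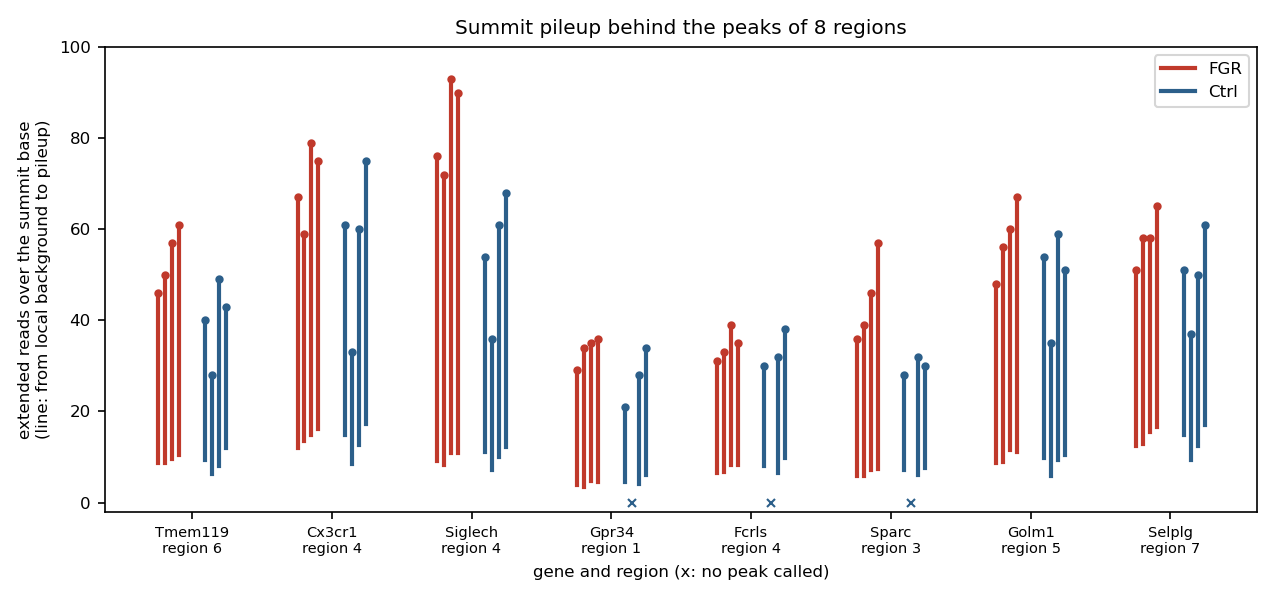
Summit pileup in extended reads per base for 8 regions of the loci (points), drawn as lines from the local background, with FGR left of Ctrl and crosses where no peak was called. Siglech region 4 reached 72 to 93 reads in FGR and 36 to 68 in Ctrl, and Gpr34 region 1, Fcrls region 4 and Sparc region 3 were not called in Ctrl replicate 2.

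A further 34 genes of homeostatic microglia were examined for comparison. Of these, 14, or 41.2%, had a gene-end peak in every one of the 8 libraries, and 7 had none. Over all genes the shares were 31.9% and 42.2%. Per library, 23 to 26 of the 34 had one in FGR and 15 to 24 in Ctrl. Of their loci 30 were tested, with 14 higher and 16 lower in FGR and a median log2 difference of -0.0042. Loci that overlap were counted separately, and C1qb and C1qc had the same number of peaks in every library (-0.41 each). Over all loci tested 22.5% were higher, with a median of -0.28. By limma adjusted p, 0 of the 30 passed in either direction. At an unadjusted limma p under 0.05 there were 5 higher, or 16.7%, and 1 lower, or 3.33%, against 2.60% higher and 15.6% lower over all loci tested. The smallest adjusted p among them was that of Itgb5, an integrin subunit gene (0.67 ± 0.23 SE on the log2 scale, limma adjusted p = 0.189).

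By the percentile of the strongest gene-end peak, with 0 where none was called, the genes nearest to the median of the 9 over the 8 libraries were Itgb5, the crystallin gene Crybb1 and the purinergic receptor gene P2ry13. Their mean absolute differences from that median were 10.1, 10.8 and 12.2 percentile points. This likeness is a description over 8 libraries and includes the library without calls, since none of the 3 genes had a gene-end peak in Ctrl replicate 2.

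Markers of other cells were examined by the same counts. No gene-end peak was called in any library at the 8 markers of monocytes and neutrophils or the 8 of the oligodendrocyte lineage. In all 8 libraries one was called at 0 of 8 border macrophage and 0 of 10 neuronal markers. The same held for 0 of 7 astrocyte and 0 of 6 lymphocyte markers and for 1 of 8 endothelial and mural markers. This 1 was Kdr, a receptor gene of endothelial cells. Over all genes, 31.9% had a gene-end peak in all 8 libraries and 42.2% had none. Cbr2, a border macrophage marker, had one in 4 FGR and 3 Ctrl libraries, and Flt1, a receptor gene of endothelial cells, in 4 FGR libraries and 1 Ctrl library. Both were chosen after their values were seen. The Flt1 locus held 4, 3, 8 and 6 peaks in FGR, against 1, 1, 1 and 3 in Ctrl. Its difference on the log2 scale was 0.96 with an SE of 0.28 (adjusted p from limma 0.13), which was larger than that of any of the 8 loci tested. Of the 3 endothelial and mural loci tested, 2 were higher and 1 lower in FGR, with Pdgfrb at 0.30 and Kdr at -0.28. Endothelial and mural loci, with the peaks of Flt1 included, held 4.72 to 7.46 of every 10000 peaks in FGR and 2.76 to 4.96 in Ctrl. Border macrophage loci held 4.72 to 6.48 in FGR and 4.60 to 7.05 in Ctrl. The loci of the 9 genes, with shared peaks counted once, held 12 to 15.2 of every 10000 peaks in FGR and 10.1 to 13.6 in Ctrl. Whether other cells contributed to the differences at the 9 genes was not tested.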

How the data were processed

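Peak lists of 8 ATAC-seq libraries were used, prepared with the Vazyme Hyperactive ATAC-Seq kit per the labels' protocols. The submitters' processing notes name the genome build mm10 and the tools MACS2 2.2.7.1, DiffBind 3.12.0, Bowtie2 2.4.5, Trim Galore 0.6.5 and SAMtools 1.3.1, without saying what each did. The sources used here do not give blacklist filtering, read shifting or duplicate removal. Such steps can move summits and change which peaks are called.

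Peaks were called per library, since the authors deposited 1 list each. The deposited score is a display value and was not used. The deposited fold is a ratio of summit pileup to local background. For each peak the authors also give a −log10 p and a −log10 q of its excess over background, the lowest −log10 q being 1.31. The authors' values were used only within their own list. Read totals were not used here. Pileup and background were recovered from the deposited fold and −log10 p as a whole-number Poisson tail, which matched 100% of peaks in every list within 0.001. Pileups count reads, so counting error limits weak peaks.

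The 9 genes and all lists were chosen with earlier results of these data known. Named are the 9 genes, neighbours inside their loci, further homeostatic genes that pass a test and the 3 nearest by gene-end percentile. Neighbours not named with the results are Hipk1, Gpr82, Coro1c and 4921517D22Rik. Of these, Coro1c overlaps Selplg region 8, called in 3 FGR libraries and 0 Ctrl libraries, and Gpr82 overlaps Gpr34 region 6. Itgb5 is also named for its p, after its values were seen. Gene spans came from a RefSeq table of GRCm38.p6 that gives no strand, so either gene end counts, and start sites came from the promoter table for 6 of the 9 genes.

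Peaks per locus (pseudocount 0.5) and ranks were fitted with limma 3.58.1 in R 4.3.3 over all 8 libraries. Both fits let the spread follow a trend on the mean value. Calls were compared with two-sided Fisher exact tests. P-values were adjusted over all loci, regions or genes by the Benjamini-Hochberg method at 0.05. Other steps ran in Python 3.11.15 with scipy 1.17.1, pandas 2.3.3, numpy 2.4.6 and matplotlib 3.10.9. The fit of peaks per locus was tested on simulated counts, and the fit of ranks was not. Alternatives were a −log10 q of at least 5, equal list lengths, each library left out, Ctrl replicates 1 and 2 left out, pairs averaged, a replicate block, windows of 10 and 50 kb, gene-end distances of 500 bp and 2.5 kb, a pseudocount of 1, no filter and ranks by fold. After seeing the data, counts without division by list length and regions of which a peak covers most were added.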

Additional observations from a re-analysis of the deposited data

How the results depend on the processing

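In each alternative the loci of the 9 genes that passed its filter, 5 to 9 of them, gave 0 calls by limma adjusted p and the 9 genes 0 gene-end calls in either direction. The 2 regions called in every FGR and no Ctrl library became 0 with −log10 q of at least 5, with lists of equal length and with windows of 10 kb, 1 where a peak had to cover most of the region, and 5 with pairs of replicates counted as 1 sample. They were 2 to 4 when each library was left out, with 4 without Ctrl replicate 3 and 4 without Ctrl replicate 4. The criterion is looser with fewer samples. The count of ranked regions passing was 1 with equal lists and 0 to 1 when each library was left out. The planned overlap rule, that a peak lie mostly inside its region, changed nothing, since each peak does by construction.

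Log2 differences of single loci changed sign as follows. With equal lists Tmem119 and Cx3cr1 were both 0.0906 and Siglech 0.36. Without Ctrl replicates 1 and 2, Tmem119 was 0.0894, Sparc -0.0545 and Selplg -0.11. Windows of 10 kb gave 0.0227 for Siglech and -0.0804 for Selplg, windows of 50 kb -0.15 for Sparc, and a pseudocount of 1 gave -0.0403 for Selplg. Undivided counts gave 0.34 for Tmem119, 0.43 for Cx3cr1, 0.30 for Siglech and 0.37 for Fcrls. With single libraries left out, Selplg ranged between -0.11 and 0.15, with -0.0159 without FGR replicate 2, -0.11 without FGR replicate 4 and -0.11 without Ctrl replicate 1, and Sparc was -0.15 without Ctrl replicate 2.

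Rank differences changed sign for Selplg region 7, which was -0.641 with equal lists, -0.892 by fold, and -2.21 to 5.79 when each library was left out, below 0 without FGR replicate 2 or Ctrl replicate 3 or 4. Cx3cr1 region 1 was -9.13 to 4.13 when each was left out, above 0 without FGR replicate 4 or Ctrl replicate 3. Without Ctrl replicates 1 and 2, Tmem119 region 5 was -0.841 and Golm1 region 5 was 3.91. None of these values passed in either fit, and the cause was not tested.

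Correlations of deviations between FGR and Ctrl libraries of the same number were -0.018, 0.098, 0.067 and 0.029. Between libraries of different numbers they lay between -0.12 and 0.11. Whether the numbers mark pairs was not tested. With a replicate block in limma, 141 loci passed in all against 1 without it, 0 of them among the 8, and Golm1 had a limma adjusted p of 0.0549 and Siglech region 4 of 0.151. Peak lists give calls rather than reads per site, so a missing peak is a value under the calling threshold at that depth.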
